A study of Homo sapiens with 30 samples.

Results

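Regions of open chromatin that lay away from gene starts and carried an ATAC-seq peak in every library are described here. ATAC-seq cuts DNA where chromatin is accessible, and the authors called peaks in each library alone. Overlapping peaks of the 6 libraries were merged into 77315 regions, and 17321 of these held a peak in all 6. A region was called distal when its midpoint lay more than 1 kb from every gene start in the PRO-seq table, which holds 20582 entries. This left 8274 constitutively open distal regions, or 47.8% of the regions open in all 6 libraries. The other 9047 regions open in all 6 lay within 1 kb of a start and are called open promoters below. A further 56768 distal regions were open in 1 to 5 libraries, 35034 of them in a single library. The members were chosen by peak presence in the ATAC-seq lists and by distance, so their ATAC-seq scores, widths and distances are given as a description with no test.

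The cells were G401, an established line from a malignant rhabdoid tumour, a cancer that loses the SWI/SNF subunit SMARCB1. DTMYC cells derive from G401: the endogenous MYC gene was removed with CRISPR, and a lentivirus supplied MYC with an N-terminal HA-FKBP12F36V tag. The compound dTAG47 recruits tagged proteins for degradation, and DMSO is its solvent, so every DTMYC group, controls included, carries the lentiviral MYC in place of the endogenous one. ATAC-seq covered 3 DTMYC libraries in 500 nM dTAG47 and 3 in DMSO at 24 h. MYC ChIP-seq covered 3 libraries in dTAG47 and 2 in DMSO at 4 h, and PRO-seq, which counts engaged polymerases, covered 2 and 2 at 4 h. RNA-seq at 24 h covered 12 libraries, 3 each of DTMYC cells in dTAG47 and DMSO and of parental G401 cells in dTAG47 and DMSO. The labels do not say whether DTMYC is 1 clone or whether replicates came from separate cultures, so p-values measure the spread between these samples, which may be technical.

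The line was checked at SMARCB1 (hg19, chr22:24129150-24176705). Its gene body held 0 and 0 PRO-seq reads in dTAG47 libraries and 0 and 2 in DMSO libraries, and 0 open regions of any library lay in the gene or within 1 kb of its start. RNA-seq libraries held 27854207 to 54633745 counts and PRO-seq libraries 18209879 to 23256313 gene body counts. How deeply the ATAC-seq and ChIP-seq libraries were sequenced is not known here. The MYC peak lists were uneven: dTAG47 libraries had 408, 7 and 193 peaks, and DMSO libraries 4010 and 1519. The second dTAG47 library, with 7 peaks, stands apart, and all 7 overlap members. Values without it are given where they bear on a result.

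Distal open regions include enhancers, insulators and the starts of transcripts that a gene table does not list. AP-1 (FOS and JUN proteins) and TEAD factors bind many enhancers of mesenchymal cells, and CTCF binds insulators at the edges of chromatin loops. MYC binds DNA as a dimer with MAX, most tightly at the E-box CACGTG, and is known mainly from active promoters. Transfer RNA genes carry their promoter inside the gene, including a B box that the factor TFIIIC binds.

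Sequences of regions described below, or of examples of motifs counted below, are printed from GRCh37, which is hg19, plus strand, 120 bases each. The first 6 are centred on an E-box in regions with a MYC peak in both DMSO libraries. FOXK1, TFAP4, PES1, HK2, FCGR2A and RBPJ are the genes with the nearest start, and capitals mark each CACGTG.
FOXK1, chr7:4681687-4681806: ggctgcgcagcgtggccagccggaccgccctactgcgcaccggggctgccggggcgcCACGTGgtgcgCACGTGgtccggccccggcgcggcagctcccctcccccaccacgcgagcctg
TFAP4, chr16:4321678-4321797: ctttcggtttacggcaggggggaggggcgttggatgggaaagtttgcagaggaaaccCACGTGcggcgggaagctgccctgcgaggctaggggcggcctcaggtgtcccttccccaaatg
PES1, chr22:30987822-30987941: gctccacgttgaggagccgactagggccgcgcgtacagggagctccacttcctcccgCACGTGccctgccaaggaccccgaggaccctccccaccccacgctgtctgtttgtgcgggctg
HK2, chr2:75062046-75062165: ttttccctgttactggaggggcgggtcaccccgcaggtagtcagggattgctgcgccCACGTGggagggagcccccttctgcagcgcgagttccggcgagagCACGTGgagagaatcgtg
FCGR2A, chr1:161424223-161424342: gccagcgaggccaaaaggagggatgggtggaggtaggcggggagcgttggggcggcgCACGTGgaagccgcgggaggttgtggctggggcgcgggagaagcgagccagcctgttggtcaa
RBPJ, chr4:26220400-26220519: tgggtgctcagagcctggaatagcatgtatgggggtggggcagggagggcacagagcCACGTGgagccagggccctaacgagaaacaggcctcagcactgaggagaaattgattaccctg

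The windows near FOXK1 and HK2 hold 2 E-boxes each, and the other 4 hold 1. Another 3 windows show other classes of distal region. The first holds the CTCF core, a motif of 13 bases with 4 free positions that was searched on both strands, in a region on chromosome 1 nearest to ZNF648. The other two hold a B box, a motif of 10 bases with 2 free positions, also searched on both strands, in runs of open regions near FCGR2A and ZNF184. Capitals mark the match, which reads on the minus strand in the ZNF648 and FCGR2A windows.
ZNF648, chr1:181998632-181998751: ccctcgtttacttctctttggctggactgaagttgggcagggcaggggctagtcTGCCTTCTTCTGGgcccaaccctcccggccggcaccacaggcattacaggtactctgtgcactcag
FCGR2A with B box, chr1:161425371-161425490: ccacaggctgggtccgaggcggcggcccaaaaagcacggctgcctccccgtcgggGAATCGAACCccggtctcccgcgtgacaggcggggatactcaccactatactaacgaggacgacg
ZNF184 with B box, chr6:27463598-27463717: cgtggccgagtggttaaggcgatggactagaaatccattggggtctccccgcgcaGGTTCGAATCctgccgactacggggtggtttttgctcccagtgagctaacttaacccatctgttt

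The label distal rests on the gene starts of the PRO-seq table, and GENCODE lists many more transcripts. Of the 7505 regions on chromosomes 1 to 22 and X, 2400 (32.0%) lay within 1 kb of a GENCODE transcript start, 1505 of them within 1 kb of a protein-coding one. These are called start-near regions, and the other 5105 (68.0%) are called remote regions. The remaining members lay on chromosome Y (54), the mitochondrial sequence (4) and unplaced or alternative contigs (711), and 715 members had no start site on their sequence. Unless stated otherwise, values below are for the 7505. The start-near regions resembled open promoters more than the remote regions did. Median GC content of the central 200 bases was 64% in start-near regions and 51.5% in remote regions, with 14 and 4 CpG dinucleotides, against 69% and 20 in open promoters. Regions open in fewer libraries had 49.5% GC and 2 CpG dinucleotides.

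Both classes were wide. The median width was 1146 bases in start-near and 1007 bases in remote regions, against 1225 bases in open promoters and 333 bases in distal regions of 1 to 5 libraries. Widths are those of merged peaks, so a region built from 6 lists can be wider than one built from 1. By place, 35.5% of the members lay in introns of protein-coding genes, 35.9% between genes, 16.7% in noncoding genes and 11.8% in exons. Among remote regions 45.2% were intergenic and 5.05% exonic, whereas 51.1% of open promoters were exonic. Place was judged at the midpoint.

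The members sat at a median of 33069 bases from the nearest PRO-seq start, and 10% of them lay within 4533 bases and 10% beyond 213525 bases. Start-near regions were at a median of 18885 bases and remote regions at 41981 bases, against 44594 bases for distal regions open in 1 to 5 libraries. Within 10 kb of a start lay 21.7% of the members and 15.3% of the less widely open regions, and beyond 100 kb lay 22.3% and 29.2%. Constitutively open regions were thus the closer set by this description, with no test. Distance and score were nearly unrelated across members (Spearman rho 0.077, n = 7505 regions of the same libraries).

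**Figure D1:**
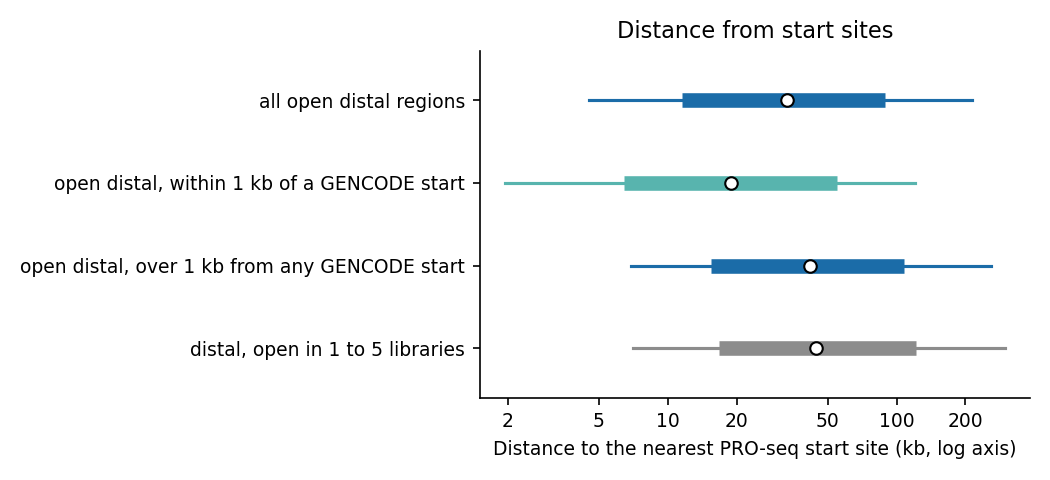
Distance from the region midpoint to the nearest PRO-seq start site (kb, log axis) for all members, start-near members, remote members and distal regions open in 1 to 5 libraries. Points are medians, bars run over the interquartile range and lines over the central 80% of regions. Start-near members lie leftmost (median 18885 bases), and remote members (41981 bases) lie close to the less widely open regions (44594 bases).

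The members nearest to the distance threshold were a region in an intron of TP53TG3B at 1001 bases, with a median score of 205.5, and one in an intron of PHF15 at 1003 bases, with 233.5. The nearest regions left out lay at KCND2 at 1000 bases, with 111, and at B3GAT2 at 999 bases, with 216. The PHF15 region held no MYC peak in dTAG47 libraries, against peaks of score 93 and 117 in DMSO libraries.

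The score of a peak is the authors' value from MACS2, 10 times the −log10 of the q value, and it depends on depth. Over members the median of the 6-library median was 122, with an interquartile range of 80 to 187.5. Open promoters had 215.5 and distal regions of 1 to 5 libraries 32. The median member score was 126, 91 and 145 in the dTAG47 libraries and 188, 126 and 76 in the DMSO libraries. The groups overlapped fully, and the highest and the lowest value both came from DMSO libraries. The library with most peaks also had the highest median and the one with fewest the lowest, with 36313, 29042 and 41663 peaks in dTAG47 libraries and 50983, 37230 and 28429 in DMSO libraries.

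Relative to promoters of the same library, members scored 0.545, 0.587 and 0.556 of the promoter median in dTAG47 libraries and 0.616, 0.560 and 0.639 in DMSO libraries. The ranges overlap, with DMSO library 2 between the dTAG47 values. Start-near regions scored above remote regions in every library, for example 154 and 116 in dTAG47 library 1 and 217 and 179 in DMSO library 1. Which regions scored high was largely shared between libraries. Spearman correlations of member scores were 0.736 to 0.781 between dTAG47 libraries, 0.649 to 0.819 between dTAG47 and DMSO libraries and 0.661 to 0.818 between DMSO libraries, over the same 7505 regions. The median over pairs was 0.770 within dTAG47, 0.765 across treatments and 0.684 within DMSO.

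**Figure D2:**
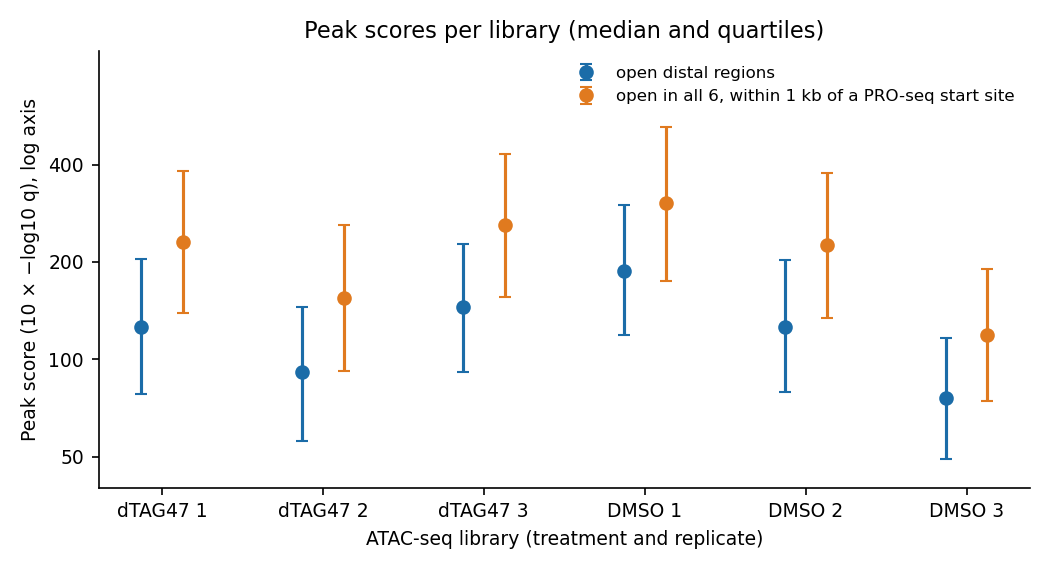
Peak score (10 times −log10 q, log axis) in each of the 6 ATAC-seq libraries, dTAG47 left of DMSO, for members and open promoters, drawn as median and interquartile range. In every library promoters lie above members, and the 3 DMSO libraries (member medians 188, 126 and 76) span the 3 dTAG47 libraries (126, 91 and 145).

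The highest scores of all lay at sequence shared with the mitochondrial genome or beside assembly gaps. Of 22 members with a median score over 5000, 21 either matched the mitochondrial genome over at least 100 bases or lay within 1 Mb of a gap. The top member, chr17:22020633-22020943, lay 1650 bases from MTRNR2L1, a nuclear copy of a mitochondrial gene, and matched the mitochondrial genome over 217 bases at 87.6% identity. It scored 76507, 66889 and 61911 in dTAG47 libraries and 56658, 72495 and 50346 in DMSO libraries. The groups overlapped. The second, at chr1:121484077-121485436 beside the centromere gap, had no such match and a median score of 62385.5. MYC ChIP-seq gave that region peaks of 2349, 418 and 1217 in dTAG47 libraries and none in either DMSO library. The third, at chr13:110076475-110076687 and nearest to IRS2, matched over all of its 213 bases at 100% identity and had a median score of 45560.5. Another gap-side region, at chr19:27731889-27734816, had MYC peaks of 6237 and 542 in dTAG47 libraries 1 and 3, none in library 2, and none in DMSO libraries.

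In all, 12 members matched the mitochondrial genome, and 1196 (15.9%) lay within 1 Mb of a gap. Whether reads from mitochondrial DNA or from collapsed repeats set these scores was not tested. Without both kinds of region the share of members with a MYC peak in both DMSO libraries was 1.73%, against 1.85% of the 7505 with them. Remote regions clear of gaps and mitochondrial matches, taken after the values were seen, still included very high scores. They were led by chr4:68264315-68266654, 145772 bases from CENPC1 (median score 7027), then chr22:18717769-18718249 near GGT3P, a gene of a family with close copies (3534), and chr1:91852793-91853105 in an intron of HFM1, a meiotic helicase gene (2706.5). The chr4 region held a MYC peak of 437 in dTAG47 library 1 and none in the other dTAG47 libraries or in DMSO libraries. Whether repeats set the scores of these regions was not tested.

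MYC peaks lay on few of these regions. Of all 8274 members, 671 (8.11%) overlapped a MYC peak in the first DMSO library and 227 (2.74%) in the other. Both DMSO libraries had one at 167 members, or 2.02% (exact 95% interval 1.73 to 2.34%, counting error only). Among 9047 open promoters 794 (8.78%, interval 8.20 to 9.38%) were bound in both. The share was 4.17% (3.40 to 5.04%) in start-near regions, 0.764% (0.544 to 1.04%) in remote regions and 0.0765% in distal regions open in 1 to 5 libraries. Of the 1068 MYC regions shared by the DMSO libraries, 162 (15.2%) lay on a member, 792 (74.2%) on an open promoter and 92 (8.61%) on other ATAC-seq regions. Members with higher ATAC-seq scores were bound more often: the bound share was 0.954%, 1.17%, 1.51% and 3.79% from the lowest to the highest 25% by score.

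After 4 h in dTAG47 the MYC peaks on members were fewer in every library. The share of members with a MYC peak was 1.15%, 0.0604% and 0.604% in dTAG47 libraries, against 8.11% and 2.74% in DMSO libraries. All 3 dTAG47 values lay below both DMSO values. The means were 0.604% ± 0.544 (SD, n = 3) and 5.43% ± 3.79 (SD, n = 2), a difference of -4.82 percentage points with an exact two-sided permutation p of 0.1. That is the smallest p that 3 against 2 libraries allow, so the design cannot reach 0.05. Without the dTAG47 library of 7 peaks the difference was -4.55 points, without the first DMSO library -2.14 points and without the other -7.51 points. Open promoters also had lower values, with 1.26% ± 1.35 (SD, n = 3) in dTAG47 and 18.4% ± 10.9 (SD, n = 2) in DMSO libraries, also p = 0.1 by the exact permutation test. Remote regions differed by -2.51 points, with the same p. The MYC peak lists as a whole were shorter as well. Peaks on members numbered 117 of 408, 7 of 7 and 53 of 193 in dTAG47 libraries, against 697 of 4010 and 237 of 1519 in DMSO libraries. Members thus held a larger part of the peaks in the dTAG47 lists. Called peaks depend on depth and on antibody yield, which are unknown here.

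Of the 139 members on chromosomes 1 to 22 and X that were bound in both DMSO libraries, 19 (13.7%), 0 and 7 (5.04%) kept a MYC peak in dTAG47 libraries 1, 2 and 3. A count of 0 of 139 allows up to 2.16% (3 counts of 139), and its exact 95% interval reaches 2.62%. For open promoters the counts were 200 (25.2%), 0 and 87 (10.96%) of 794. Among the 39 bound remote regions 1, 0 and 1 kept a peak. These sets were chosen by their peaks in DMSO libraries, so a lower share in dTAG47 libraries follows in part from the choice. Of all 5105 remote regions, 35, 5 and 20 held a peak in dTAG47 libraries 1, 2 and 3.

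**Figure D3:**
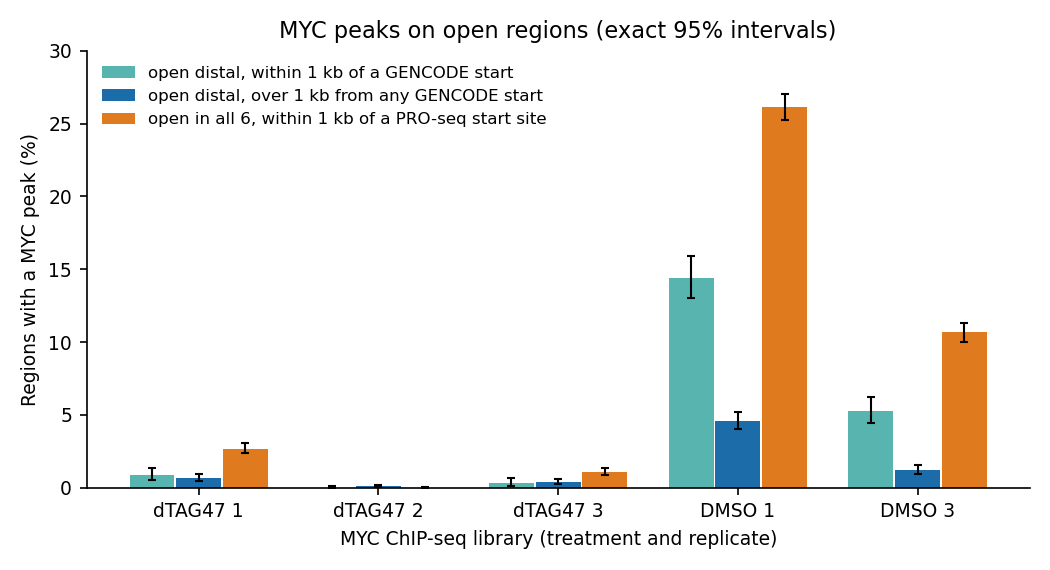
Share of regions (percent) that overlap a MYC peak in each ChIP-seq library, 3 dTAG47 libraries left of 2 DMSO libraries, for start-near members, remote members and open promoters, with exact 95% binomial intervals as error bars. In each class both DMSO bars lie above all 3 dTAG47 bars, and in each DMSO library promoters lie above start-near and start-near above remote regions.

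The strongest bound members were start-near. The region at chr7:4681102-4682347, whose E-box pair is printed first above, lay 40206 bases from the PRO-seq start of FOXK1, a forkhead factor gene. It lay 155 bases from a GENCODE noncoding transcript start. In the RNA-seq annotation FOXK1 begins at chr7:4683388, so the region ends close to that gene. The region's MYC score was 142, none and 174 in dTAG47 libraries, against 1265 and 501 in DMSO libraries. Its ATAC-seq score was 870, 419 and 678 in dTAG47 libraries and 807, 530 and 218 in DMSO libraries. MYC scores were thus lower in every dTAG47 library, while the accessibility scores of the groups overlapped. The regions of this and the next paragraph were picked for high MYC scores in DMSO libraries. Lower scores in dTAG47 libraries follow in part from that choice, in which the height of ATAC-seq scores played no part. The region at chr7:23513406-23514603, 4009 bases from IGF2BP3, an oncofetal RNA-binding protein gene, had no CACGTG. Its MYC score was 196, none and 44 in dTAG47 libraries and 853 and 352 in DMSO libraries.

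Regions with their midpoint in an intron of a known gene made up the next 3. TFAP4 encodes a bHLH factor, and its region (chr16:4321251-4322571, 1091 bases from the start) had MYC scores of 62, none and 66 in dTAG47 libraries and 415 and 258 in DMSO libraries, with 3 E-boxes. PES1 encodes a ribosome assembly factor, and its region (chr22:30987353-30988483) lay 20 bases from an alternative PES1 start. It had a MYC score of 262 in the first dTAG47 library and none in the others, against 527 and 234 in DMSO libraries. HK2 encodes a hexokinase, the first step of glycolysis, and its region (chr2:75060777-75062900) had 53, none and none in dTAG47 libraries and 529 and 217 in DMSO libraries. In the first dTAG47 library the PES1 score was thus above one DMSO value, and the other dTAG47 values at these 3 regions lay below both. The remaining 3 of the top 8 lay at FAM230D, DUXAP10 and a noncoding gene near POTEH, in families with related copies. Whether reads from such copies affected these scores was not tested. At FAM230D the MYC score of the first dTAG47 library, 288, lay between the DMSO values of 203 and 385.

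Remote bound regions were weaker. The region at chr1:161424061-161426278, 50036 bases from FCGR2A, had no MYC peak in any dTAG47 library, against scores of 362 and 155 in DMSO libraries. It holds 1 E-box and 4 B boxes, and its ATAC-seq score was 1895, 1234 and 2707 in dTAG47 libraries and 2912, 1761 and 1200 in DMSO libraries. An intron of RBPJ, the DNA-binding factor of Notch signalling, held a MYC peak of 70 in the third dTAG47 library and none in the other two, against 166 and 138 in DMSO libraries. An intron of RIMBP2 (chr12:131198188-131200542) had none in dTAG47 libraries, against 170 and 131 in DMSO libraries. At the FCGR2A and RIMBP2 regions every dTAG47 library was without a peak. These remote regions were picked after the values were seen, from those with a MYC peak in both DMSO libraries.

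Motifs were counted in the central 200 bases on both strands, beside the same windows 10 kb to each side of the members. CACGTG lay in 3.65% of members, 15.8% of the members bound by MYC in both DMSO libraries, 5.18% of open promoters and 2.34% of flanking windows. Over the whole width of the region, 68.3% of the bound members and 18.7% of all members held one. Over all regions of any class the central shares were 3.35% for CACGTG, 5.73% for the AP-1 site, 11.5% for the TEAD site and 1.93% for the CTCF core. Remote and start-near regions differed in composition. GGGCGG, the SP and KLF box, lay in 15.9% of remote regions, 45.2% of start-near regions and 60.1% of open promoters, and CCGGAAG, the ETS motif, in 1.94%, 6.17% and 11.2%. Median GC content ran in the same order of classes and was not matched between them.

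The AP-1, TEAD and CTCF motifs ran the other way, and so did the RUNX, GATA and FOX motifs. TGANTCA, the AP-1 site, lay in 7.54% of remote regions, 4.12% of start-near regions and 1.61% of open promoters, against 5.40% of flanking windows and 6.49% of distal regions open in 1 to 5 libraries. GGAATG, the TEAD site, lay in 14.8%, 9.42% and 5.49%, against 10.3% of flanking windows and 12.54% of distal regions open in 1 to 5 libraries. Read as CATTCC, it also recurs in short ATTCC repeats, such as those in the member at chr16:46390862-46392358. How far such repeats set the TEAD share was not tested. The CTCF core lay in 2.76% of remote regions and 0.365% of open promoters, against 0.228% of flanking windows and 2.22% of distal regions open in 1 to 5 libraries. TGTGGT, the RUNX site, and AGATAA, bound by GATA factors, were no more frequent in members (10.9% and 5.82%) than in the flanks (14.3% and 11.7%). In remote regions, start-near regions and open promoters the RUNX site had 12.7%, 7.17% and 5.19%, and the GATA site 6.95%, 3.42% and 1.97%. CAGCTG, bound by tissue bHLH factors, lay in 12.4% of members and 8.42% of flanks, and TGTTTAC (FOX) in 2.21% and 3.02%. The NFI palindrome was found in 1 of 7505 members. A match in these windows is a string of letters, not a measured binding event.

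**Figure D4:**
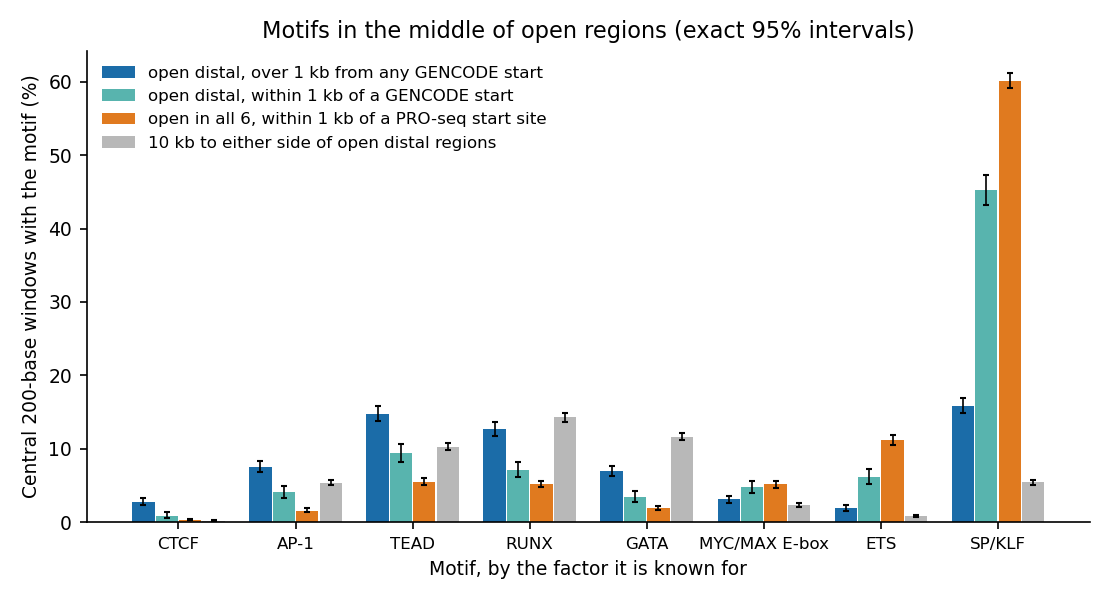
Share of windows (percent) whose central 200 bases hold each motif, for remote members, start-near members, open promoters and windows 10 kb to either side of the members, with exact 95% intervals. SP and KLF boxes lie in 15.9% of remote members and 60.1% of promoters, while AP-1 and TEAD sites lie in 7.54% and 14.8% of remote members and in 1.61% and 5.49% of promoters.

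Most members stood alone, with a median gap of 124801.5 bases to the next. Linking members at most 12500 bases apart gave 187 groups of at least 3, which held 693 members (9.23%). Grouped members had a median score of 133 and ungrouped members 120.5. The largest groups differed in what lay around them. A run of 11 at chr16:46386745-46435531 lay 943 bases from a gap, and 41 of the 187 groups lay within 1 Mb of one. Another 11 at chrX:114960090-115005247 lay in DANT1, the noncoding gene of the DXZ4 macrosatellite, a repeat that CTCF binds, with median scores of 52 to 495.5. A run of 10 at chr1:228745771-228782494 lay at RNA5S genes, which encode the 5S ribosomal RNA transcribed by RNA polymerase III, with scores of 88.5 to 335.5. A run of 9 at chrX:61686551-61734464 lay 4538 bases from a gap.

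Runs of B boxes lay in 2 of the groups of 8. At chr1:161410015-161441192, 34328 to 64643 bases from FCGR2A, 8 of 8 members held a B box, with scores of 137.5 to 1828, and 2 were bound by MYC in both DMSO libraries. At chr6:27462820-27530047, near ZNF184, 7 of 8 members held one, with scores of 48.5 to 147.5, and 0 were bound in both. In the central 200 bases a B box lay in 0.600% of members, 0.343% of open promoters, 0.122% of distal regions open in 1 to 5 libraries and 0.141% of flanks. A list of transfer RNA genes was not used here, so these matches were not assigned to genes. The B box was added to the motifs after the values were seen.

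Members gathered near highly expressed genes. Of 5960 members whose nearest start belonged to a gene with an RNA-seq level, 2305 (38.7%, interval 37.4 to 39.9%) lay nearest to a gene in the top 25% by mean CPM in DTMYC cells in DMSO, a threshold of 61.5 CPM. The share was 40.7% for remote and 34.4% for start-near regions, 37.8% for open promoters and 31.6% for distal regions open in 1 to 5 libraries. For the top 10% of genes, remote regions had 23.8%, open promoters 15.4% and distal regions of 1 to 5 libraries 15.6%. Ranked by CPM per kb of gene length the top 25% took 35.5% of members, 37.5% of promoters and 28.6% of the less widely open regions. By PRO-seq gene body density the shares were 34.6%, 41.6% and 27.0%. On both length-scaled rankings members lay below promoters and above the less widely open regions.

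Seen from the genes, the share with a member within 50 kb of the start was 21.9% in the lowest of 10 expression groups and 49.9% in the highest, with 35.1% over all genes. For remote members it was 15.1% and 36.5%, and 21.9% over all genes. The shares lay between 32.1% and 39.8% from the group numbered 3 to the group numbered 9. Gene density also varied between the groups: genes had a mean of 2.16 start sites within 50 kb in the lowest group, 2.95 in the group numbered 5 and 2.52 in the highest. Its part in the result was not tested.

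**Figure D5:**
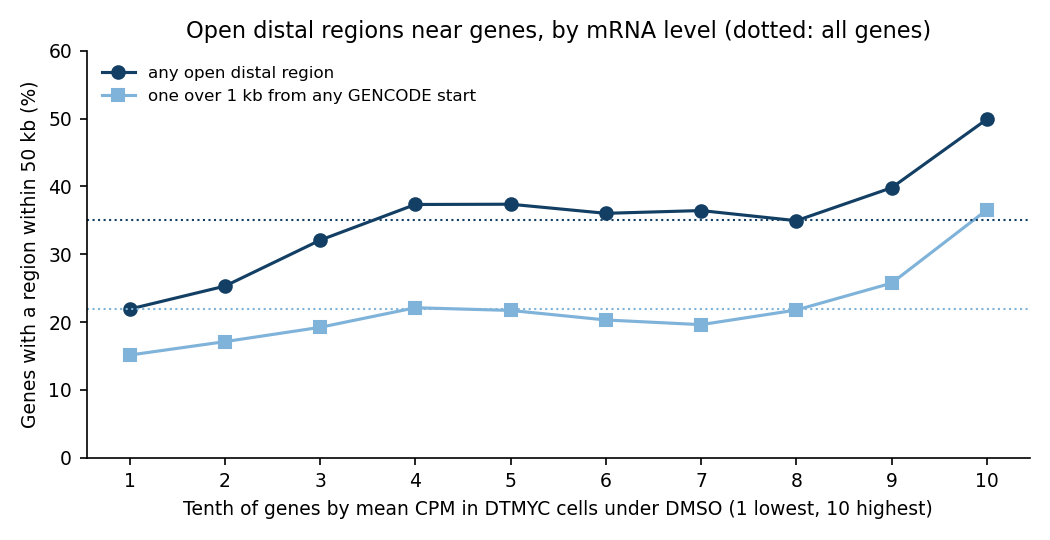
Share of genes (percent) with a member within 50 kb of the start site, for 10 equal groups of genes from lowest to highest mean CPM in DTMYC cells in DMSO, for all members and for remote members, with dotted lines at the shares over all genes (35.1% and 21.9%). The share is 21.9% in the lowest group and 49.9% in the highest for all members, and 15.1% and 36.5% for remote members.

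Single loci with many members ranged from nearly silent to strongly expressed genes. EMP1, an epithelial membrane protein gene, had the most members of any gene, 14 within 100 kb of its start, of which 13 were remote. Their median scores ran between 38.5 and 395.5. The highest, chr12:13267068-13268173, scored 415, 241 and 376 in dTAG47 libraries and 806, 433 and 119 in DMSO libraries, with overlap between the groups. EMP1 mRNA was 2692, 2695 and 2651 CPM in dTAG47 libraries, against 2063, 2148 and 2019.9 CPM in DMSO libraries. It rose by a log2 fold change of 0.37 (SE 0.10, edgeR adjusted p = 0.0366), and in parental cells the log2 fold change was 0.11 (adjusted p = 0.582). The difference between the cell lines, an interaction of 0.26 on the log2 scale, did not pass (edgeR adjusted p = 0.334), a test that 1.19% of all genes passed. EMP1 passed in none of the 6 fits that left out 1 DTMYC library (adjusted p 0.0748 to 0.130). Every dTAG47 library lay above every DMSO library in DTMYC cells.

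The next genes by number of members were mostly of low expression. HSPA6, a heat shock protein gene, and FCGR2A, an Fc receptor gene, had 13 each at mean levels of 0.951 and 0.0210 CPM in DMSO libraries. HIST1H3D, a histone gene, had 12 at 125 CPM, and ZSCAN10 and RHOU had 11 each at 3.54 and 1.06 CPM. Of these, HIST1H3D and RHOU had no remote ones.

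COL11A1, a fibrillar collagen gene, had 10 members within 100 kb, all remote, with median scores of 56 to 179.5. Its mRNA was 2786 ± 37.5 CPM in dTAG47 and 2195 ± 93.5 CPM in DMSO libraries (SD, n = 3 each), and it did not pass the test (log2 fold change 0.34, edgeR adjusted p = 0.249). AKAP13, a RHOA exchange factor gene, had 9, all remote, with scores of 71 to 444. These 3 genes were chosen after the values were seen. KRT8 and KRT18, a neighbouring pair of keratin genes, had 7 each. ACTB, the cytoplasmic actin gene, also had 7. AMOTL2, a YAP regulator, had 6, all remote. At the MYC start 2 remote members lay within 100 kb.

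Gene lists, chosen with earlier results known, were read against 52.4% of all 15648 matched genes with a member within 100 kb. Among factor lists, 12 of 13 AP-1 genes had one, with a median of 2 members per gene against 1 over all genes. TEAD and YAP genes had 9 of 13, MYC network genes 8 of 11 and RUNX, NFI and ETS genes 8 of 14. SWI/SNF genes had 6 of 17, CTCF and cohesin genes 4 of 9 and enhancer coactivators 3 of 10. FOSB had 6 members, ATF3 had 5, and JUNB, JUND, BATF3 and MAFK had 3 each. The AP-1 genes also had a mean of 4.00 start sites within 50 kb, against 2.66 over all genes.

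Lineage lists ran from 1 of 5 to 8 of 11 genes. Mesenchymal and fibroblast genes had 12 of 21, smooth muscle genes 4 of 7, kidney progenitor genes 7 of 13, kidney epithelial genes 8 of 11 and neural genes 6 of 12. Haematopoietic genes had 3 of 6 and endothelial genes 1 of 5. Of the 8 kidney epithelial genes with a member, 6 were under 1 CPM, and of the 12 mesenchymal genes 3 were. PDGFRB, a receptor of mesenchymal cells, had 3 members, all remote, and COL1A1, a collagen gene, had 2. Among genes of at least 1 CPM 57.2% had a member within 100 kb, and among the rest 42.8%.

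Genes nearest to members rose and fell in similar numbers after dTAG47. In bulk RNA, fewer cells of a type and less RNA per cell cannot be told apart. Of 4788 genes with the nearest start to a member, 3166 passed the filter on low counts. Of these 185 rose and 149 fell after 24 h in dTAG47 (edgeR adjusted p under 0.05). That is 5.84% and 4.71%, where 4.27% and 4.44% of all 13401 genes tested rose and fell, and in either direction 10.5% passed, where 8.71% of all genes did. The median log2 fold change was 0.06, against 0.03 over all genes. In the fit of the 6 DTMYC libraries alone the counts were 651 and 575 of 2992, where 16.5% and 19.9% of all 12594 genes rose and fell. In parental cells, which lack the tagged MYC, 10 rose and 2 fell of the 3166 (0.379%), where 0.104% and 0.0224% of all genes rose and fell and 0.127% passed either way. Without parental DMSO library 3, 1050 nearest genes passed in place of 334. Leaving out any 1 of the 6 DTMYC libraries left between 97 and 178.

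Nascent transcription at 4 h gave 0 calls by edgeR in gene bodies, among 3566 nearest genes and among all 13397 genes (0.0%). At an unadjusted p under 0.05 there were 342 and 1298. DESeq2 called 1 rise and 14 falls of 3013 nearest genes, where 0.0543% and 0.552% of 11059 genes rose and fell. With 2 libraries a group the spread is poorly known. The number of calls depended strongly on whether the replicate number was used as a block, as given in the closing section. Nothing in the labels pairs these samples.

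Genes nearest to the members that MYC bound were set beside genes whose own open promoter it bound. Of 115 tested genes nearest to a member bound in both DMSO libraries, 4 rose and 10 fell (3.48% and 8.70%), with a median log2 fold change of 0.02. Of 709 genes at bound open promoters, 4 rose and 120 fell (0.564% and 16.9%), with a median of -0.16. Over all genes 4.27% rose and 4.44% fell. In the fit of the 6 DTMYC libraries 17 rose and 33 fell of 112 genes nearest to bound members, and 35 rose and 408 fell of 709 at bound promoters, where 16.5% and 19.9% of all genes rose and fell. Of the 10 that fell, 8 were nearest to a start-near region, and all 4 that rose were nearest to a remote one. Of the 35 tested genes nearest to a remote bound region, 4 rose and 2 fell (11.4% and 5.71%). The counts are small, and the difference between the sets was not tested. Among the 115, 11 also had MYC at their own open promoter, and 2 of those, TFAP4 and HNRNPF, fell and 0 rose. An open promoter here needs a midpoint within 1 kb of a PRO-seq start. The bound members nearest to MARS2 and HK2 fall outside this, yet they span the gene starts of the RNA-seq annotation (chr2:198570087 and chr2:75061108). Distal and promoter binding are thus not cleanly separated in this comparison. Of the 14 called genes, NAA20, TPM1 and FGFBP3 passed in none of the 6 fits that left out 1 DTMYC library, and GRIN1, DHX30 and HNRNPF in 1. PES1 passed in all but the fit without DMSO library 3 (edgeR adjusted p = 0.0544), and the other 7 passed in all 6.

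The genes that fell included TFAP4, HK2 and PES1, described above for MYC at a region with its midpoint in an intron. TFAP4, whose own open promoter MYC also bound, had mRNA levels of 28.8, 26.3 and 25.8 CPM in dTAG47 libraries, against 42.4, 41.9 and 42.4 CPM in DMSO libraries, a log2 fold change of -0.65. HK2 averaged 128 ± 2.55 CPM in dTAG47 and 179.9 ± 7.99 CPM in DMSO libraries (SD, n = 3 each; log2 fold change -0.49). PES1 averaged 234 ± 3.604 CPM in dTAG47 and 328 ± 28.3 CPM in DMSO libraries (SD, n = 3 each; log2 fold change -0.49). For all 3 the libraries of the groups did not overlap, as for 45.2% of all genes. ANKRD13B had the largest fall of the 10, with 57.6 ± 4.23 CPM in dTAG47 and 94.2 ± 2.02 CPM in DMSO libraries (SD, n = 3 each; log2 fold change -0.71). SLC19A1, the reduced folate carrier, followed with 61.7 ± 3.05 and 99.0 ± 4.62 CPM in dTAG47 and DMSO libraries (log2 fold change -0.68). The other falls were of GRIN1, MARS2, HNRNPF, DHX30 and NAA20, with log2 fold changes from -0.62 to -0.29.

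The 4 that rose lay nearest to remote bound regions. The bound region lay 119191 bases from the start for CD82, 16762 for HHAT, 196740 for TPM1 and 21983 for FGFBP3. In DMSO libraries its MYC scores were 42 and 74 for CD82, 72 and 146 for HHAT, 30 and 32 for TPM1 and 34 and 35 for FGFBP3. The lowest score of the peak lists is 13, so several of these peaks were weak. CD82, a tetraspanin gene, averaged 13.7 ± 0.928 CPM in dTAG47 and 7.35 ± 0.343 CPM in DMSO libraries (SD, n = 3 each; log2 fold change 0.90). HHAT, the acyltransferase of Hedgehog ligands, averaged 18.3 ± 0.598 and 12.6 ± 0.128 CPM in dTAG47 and DMSO libraries (log2 fold change 0.54). TPM1, a tropomyosin gene, averaged 1490.0 ± 32.0 and 1210.0 ± 26.7 CPM in dTAG47 and DMSO libraries (log2 fold change 0.30). FGFBP3, an FGF-binding protein gene, rose by a log2 fold change of 0.35.

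By the rule for named genes, the 6 largest falls among genes nearest to a member were DDN, TERT, NEFH, SOX8, KLRG2 and TEX15, and the 6 largest rises PLCB2, ZNF117, CD82, SNCG, UPK3B and GMNC. The log2 fold changes were -1.32 for DDN, -1.04 for NEFH and 1.03 for PLCB2. TERT, the telomerase catalytic subunit, had 2 remote members within 100 kb. One, chr5:1326427-1329169, scored 996, 815 and 1208 in dTAG47 libraries and 1724, 1131 and 791 in DMSO libraries, and the other, chr5:1289932-1291245 in a TERT intron, 52, 13 and 29 in dTAG47 and 38, 69 and 36 in DMSO libraries. Neither held a MYC peak in any DMSO library. TERT mRNA was 7.59, 7.44 and 8.44 CPM in dTAG47 libraries, against 19.3, 15.7 and 17.2 CPM in DMSO libraries, with no overlap (log2 fold change -1.15, edgeR adjusted p = 0.00143). Scores at the first region thus overlapped between the groups, while the mRNA values did not.

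SOX8, an HMG-box factor gene with 1 remote member, averaged 7.27 ± 0.125 CPM in dTAG47 and 12.97 ± 0.975 CPM in DMSO libraries (SD, n = 3 each; log2 fold change -0.83). SNCG, gamma-synuclein, had 3 members within 50 kb and averaged 16.2 ± 0.780 and 9.20 ± 1.57 CPM in dTAG47 and DMSO libraries (log2 fold change 0.81). UPK3B, a uroplakin gene, averaged 54.4 ± 2.39 and 31.2 ± 1.46 CPM in dTAG47 and DMSO libraries (log2 fold change 0.80). GMNC, a coiled-coil factor of multiciliated cells, averaged 31.5 ± 1.24 and 18.1 ± 2.51 CPM in dTAG47 and DMSO libraries (log2 fold change 0.79). In parental cells KLRG2 had a log2 fold change of -1.37 that did not pass (edgeR adjusted p = 0.0532). ZNF117 belongs to a family of related zinc finger genes, and whether reads from relatives affected its counts was not tested. GMNC and ZNF117 passed in none of the 6 fits that left out 1 DTMYC library (edgeR adjusted p 0.0748 to 0.178 for GMNC and 0.0622 to 0.0869 for ZNF117). TEX15 did not pass without dTAG47 library 2 (0.0555), and the other 9 passed in all 6.

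Most listed genes did not pass, and those named here were chosen after their values were seen. Among mesenchymal genes 1 of 15 tested rose (FBN1, log2 fold change 0.64) and 0 fell, with a median log2 fold change of 0.24, where 4.27% of all genes rose and 4.44% fell. Smooth muscle genes had 1 rise of 6 (median 0.04), namely TAGLN, the transgelin gene, with 117 ± 6.53 CPM in dTAG47 and 76.5 ± 3.90 CPM in DMSO libraries (SD, n = 3 each; log2 fold change 0.61). Kidney progenitor genes had 1 rise of 6 (MEOX1, log2 fold change 0.48) and TEAD and YAP genes 1 rise of 12 (CTGF, log2 fold change 0.34). AP-1 genes had 2 falls of 13 (BATF3 and MAFK, log2 fold changes -0.97 and -0.48), and MYC network genes 2 falls of 10 (MXI1 and MAX, -0.54 and -0.30). RUNX, NFI and ETS genes had 1 rise (ETV5, 0.40) and 1 fall (RUNX3, -1.23) of 13. Kidney epithelial (5 tested), neural (8), haematopoietic (2), endothelial (1), CTCF and cohesin (9), coactivator (10) and SWI/SNF genes (16) had 0 calls in this fit.

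The fit of the 6 DTMYC libraries alone called more of the listed genes, as it did of all genes (16.5% rose and 19.9% fell). Of 14 mesenchymal genes 9 rose and 1 fell, and of 12 TEAD and YAP genes 5 rose and 1 fell. AP-1 genes had 4 falls of 13 and MYC network genes 4 falls of 10, with 0 rises in both. RUNX, NFI and ETS genes had 1 rise and 3 falls of 12, and SWI/SNF genes 1 and 3 of 16. Kidney progenitor genes had 2 and 2 of 6, and coactivators 1 and 1 of 10. Smooth muscle, kidney epithelial, neural, endothelial and CTCF and cohesin genes had 1 rise each and 0 falls, and haematopoietic genes 0 calls. In the fit of all 12 libraries, of the listed genes called there, TAGLN and MEOX1 passed with any 1 DTMYC library left out. BATF3 passed in 4 of those 6 fits, not without dTAG47 library 1 or DMSO library 1, MAFK, MXI1 and RUNX3 in 1, and FBN1, CTGF, ETV5 and MAX in none.

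The most abundant genes with a member within 50 kb were EEF1A1, EEF2 and ACTB, the translation elongation and actin genes. EEF1A1 averaged 9816 ± 174 CPM in dTAG47 and 9979 ± 352 CPM in DMSO libraries, EEF2 4669.6 ± 219.6 and 5389 ± 331 CPM, and ACTB 5606 ± 173 and 5118 ± 232 CPM (SD, n = 3 each). None of the 3 passed the test.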

How the data were processed

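The regions, gene lists and rules were chosen with earlier results of these data known. Per the submitters' processing notes, reads were processed with cutadapt, Bowtie2, STAR, featureCounts, MACS2, DiffBind and DESeq2 on build hg19 (roles and versions: not given in the sources used here). The authors deposited 1 peak list per ATAC-seq and ChIP-seq library, whose score is 10 times the −log10 q as MACS2 writes it and is at least 13. The names of the MYC peak lists say HA where the labels name a MYC antibody. The authors deposited raw counts per gene for RNA-seq and raw gene body counts for PRO-seq, with a density signal that is the authors' count divided by a length, without scaling for depth.

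Peaks were merged with bedtools 2.31.1 where they shared at least 1 base, and the region's score in a library is its highest peak. Start sites came from the PRO-seq table, sequence from GRCh37 (hg19) and transcripts from GENCODE v44 lifted to it. Mitochondrial matches came from blastn 2.17.0 (at least 100 bases). MYC overlap needed 1 base. Shares have exact (Clopper-Pearson) 95% intervals. Counts were tested in R 4.3.3 with edgeR 4.0.16 (filterByExpr, TMM, quasi-likelihood F-test, two-sided, Benjamini-Hochberg over all genes, threshold 0.05), with all 12 RNA-seq libraries in 1 fit, and with DESeq2 1.42.0 as an alternative. CPM of named genes use effective library sizes, and ranks and list levels use plain CPM. Counts were also simulated, with changes set only in genes of above-median abundance. There edgeR recovered 95% of log2 changes of 1 and 49% of changes of 0.5 in RNA-seq (13209 genes), and 98% and 31% in PRO-seq (13223 genes). It called 11 unchanged genes in RNA-seq and 9 in PRO-seq. Recovery in genes of lower abundance was not simulated. Of 20367 start-site genes, 15648 matched the RNA-seq table by symbol.

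The rule for named items took the 8 members with the highest score, the 8 with the highest lower MYC score in DMSO, the 5 linked groups with most members, the 2 regions on each side of the distance threshold, the nearest genes of these, the 6 largest rises and 6 largest falls past the threshold with at least 5 CPM, and listed genes with most members. Same-numbered RNA-seq samples of DTMYC cells did not deviate together.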

Additional observations from a re-analysis of the deposited data

Results flagged for a closer look

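Of 78 named genes tested, 18 had a response to dTAG47 in DTMYC cells that differed from that in parental cells by the interaction test of the edgeR fit (adjusted p under 0.05), where 1.19% of all genes passed. Most of the 18 were named for their change in DTMYC cells, which enters the interaction, so their share is no independent result. The difference is given here as the log2 response in DTMYC minus that in parental cells. The response was lower in DTMYC cells for DDN at -1.20, NEFH at -1.12, TERT at -1.04, ANKRD13B at -0.83, TFAP4 at -0.70, SLC19A1 at -0.63, MNT at -0.61 and HK2 at -0.57. It was higher for EPCAM at 1.84, ZNF117 at 1.48, CD82 at 1.00, UPK3B at 0.96, PLCB2 at 0.95, SNCG at 0.83, HHAT at 0.73, KRT8 at 0.54, TAGLN at 0.53 and MEOX1 at 0.48. EPCAM, an epithelial adhesion gene, was barely expressed, with 0.338 CPM in dTAG47 and 0.144 CPM in DMSO libraries of DTMYC cells. EPCAM, KRT8 and MNT passed in neither line alone, and their responses had opposite signs in the 2 lines. The log2 fold changes in DTMYC and parental cells were 1.22 and -0.62 for EPCAM, 0.20 and -0.35 for KRT8 and -0.29 and 0.32 for MNT. The cause of these differences was not tested.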

How the results depend on the processing

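The main values were 8274 members, of which 2.02% had a MYC peak in both DMSO libraries and 8.83% in either, 8.78% of open promoters with MYC in both, and 334 called genes nearest to a member. Requiring 5 of 6 libraries gave 12527 members, 1.44% and 6.63%. A distance over 5 kb gave 8.02% in either. Adding GENCODE starts gave 1.14%, 6.05%, 7.80% of promoters and 203 genes. Only peaks with a score of at least 50 gave 5242 members, 2.59%, 10.9%, 9.39% of promoters and 217 genes. Leaving out each ATAC-seq library gave 8331 to 10205 members, 1.72% to 1.98%, 7.72% to 8.65%, 8.61% to 8.77% of promoters and 335 to 381 genes. With 1 DMSO ChIP-seq library left out the bound share was 2.74% or 8.11% of members and 10.7% or 26.1% of promoters. Start-near and remote members had 4.17% and 0.764%, a division added after seeing the data. The MYC difference ranged from -7.51 to -2.14 points with each ChIP-seq library left out: -2.14 without DMSO library 1 and -7.51 without DMSO library 3.

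All genes called in RNA-seq numbered 1167. The fit of the 6 DTMYC libraries gave 4593, and 1226 nearest genes. Leaving out parental DMSO library 3 gave 3951 and 1050. Without DTMYC dTAG47 libraries 1, 2 and 3 there were 402, 329 and 474 calls, and without DTMYC DMSO libraries 1, 2 and 3 there were 378, 636 and 343, with 97 to 178 nearest genes. Only remote members gave 203 nearest genes, and only MYC-bound members 14. In PRO-seq the main counts were 0 and 0, and DESeq2 gave 67 genes and 15 nearest genes, and no filter 2 genes. Leaving out 1 library gave 5 to 44 genes and 1 to 9 nearest genes: 37 without dTAG47 library 1, 31 without dTAG47 library 2, 5 without DMSO library 1 and 44 without DMSO library 2. With the replicate number as a block 4360 genes and 1269 nearest genes were called in PRO-seq (740 up, 529 down), and 1140 and 321 in RNA-seq. Same-numbered PRO-seq samples correlated at 0.639, but nothing in the labels pairs them.

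The share of members nearest to highly expressed genes (38.7%) was 21.5% for the top 10%, 34.6% by PRO-seq density and 35.5% by CPM per kb. Links of 5 kb and 25 kb gave 41 and 347 groups, against 187. Over whole regions the motif shares were 18.7% (E-box), 28.2% (AP-1), 49.98% (TEAD), 8.21% (CTCF), 45.2% (RUNX), 12.498% (ETS), 52.1% (SP and KLF), 30.9% (GATA), 12.8% (FOX), 49.8% (CAGCTG) and 2.24% (B box), since the windows are wider. For 36 named genes called as reported, 297 of 396 values under other settings kept the call, 99 lost it and 0 changed sign. For 42 not called, 429 of 458 stayed uncalled, 29 passed and 15 changed sign. The cause of the other shifts was not tested. Unknown peak depth limits every count of shared peaks.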
